A study of Mus musculus with 10 samples.

Results

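The expression of 8 genes for neurotrophic ligands and their receptors was followed in cultured mouse adipocyte precursors (APs) with and without interleukin-4 (IL-4). They are the ligands Gdnf, Bdnf and Ntf3 and the receptors Gfra1, Gfra2, Ngfr, Ntrk2 and Ntrk3. Each was found by its symbol in the gene tables of the mRNA libraries, which list 18384 genes in all, and all 8 were present. The APs came from subcutaneous white fat of C57BL/6J mice, where magnetic beads removed CD45- and CD31-positive cells and then retained SCA-1-positive ones. mRNA was sequenced from 3 control cultures (replicates 1 to 3) and 3 cultures kept in medium with IL-4 (replicates 4 to 6), all harvested on day 4. The dose of IL-4, the age of the mice and whether animals were pooled are not given in the sources used here.

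Gdnf binds the anchored receptor GFRα1, and the pair then engages the kinase RET. Gfra2 encodes the preferred co-receptor for neurturin. Bdnf and Ntf3 encode neurotrophins that act on the Trk kinases TrkB (Ntrk2) and TrkC (Ntrk3), while Ngfr encodes p75NTR, which binds all mature neurotrophins and their precursors. In fat, these factors are best known for their part in innervation by sympathetic and sensory fibres and for their presence in Schwann cells, the glia of peripheral nerves.

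The assigned reads per library ranged from 28526782 to 28674604 in control cultures and from 28914003 to 29057787 in IL-4 cultures. Of the genes with a count, 14009 passed the filter on low counts and were tested, among them 6 of the 8 genes, while Ntf3 and Ntrk3 were too low. With IL-4, 4 of the 6 tested genes were lower (Gfra1, Gfra2, Ngfr and Bdnf) and 2 were higher (Gdnf and Ntrk2) at an adjusted p under 0.05 in edgeR's quasi-likelihood test. Across all tested genes the same rule called 18.4% lower and 19.0% higher. The 8 genes were chosen with earlier results of these data known, so this comparison is a description and no test of the set. Beyond a log2 fold change of 1 in either direction, only Gfra1 was called, as lower, against 5.26% of tested genes called lower and 5.77% called higher at that size. The control and IL-4 libraries did not overlap in normalized counts for 7 of the 8 genes, with 5 lower and 2 higher. Among the 5 was Ntrk3, which was too low to be tested. The 6 tested genes alone gave 4 lower and 2 higher. For comparison, 25.3% of tested genes were lower and 25.2% higher without overlap.

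**Figure D1:**
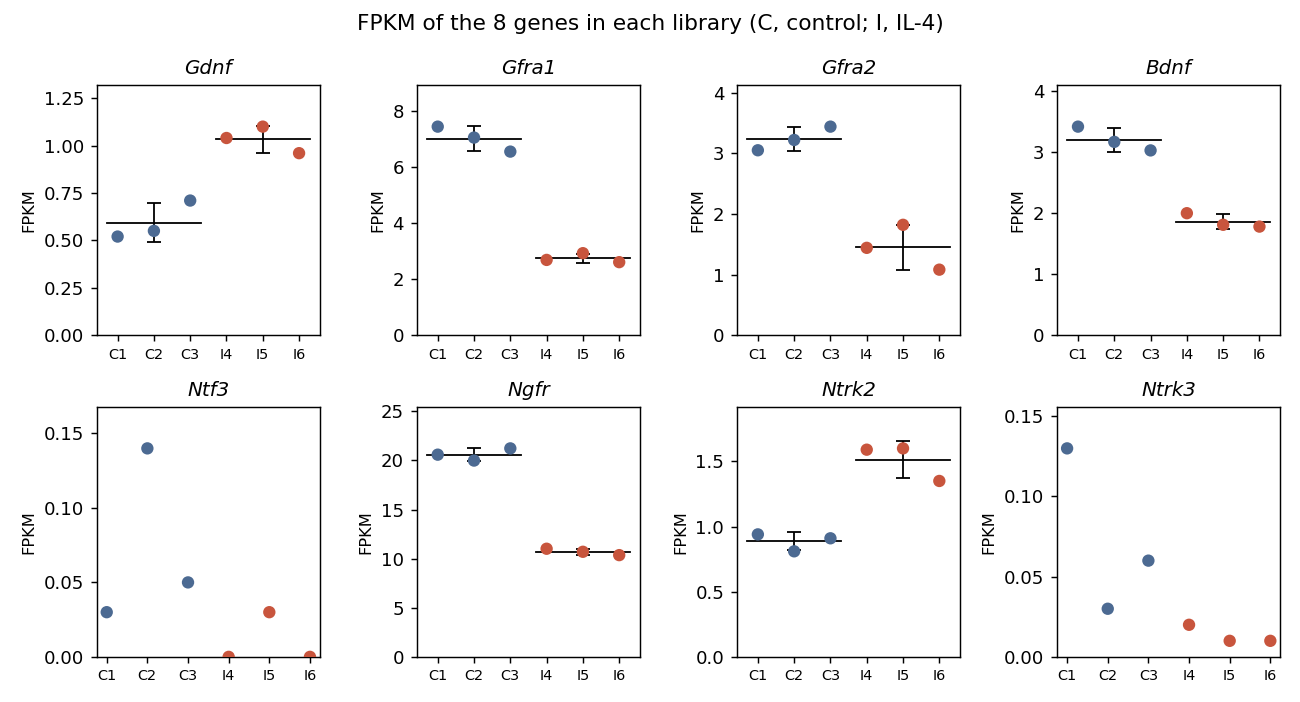
FPKM (vertical axis, linear, a separate scale for each gene) of the 8 genes in each of the 3 control libraries (C1 to C3, blue) and 3 IL-4 libraries (I4 to I6, red). For the 6 tested genes, the horizontal line is the group mean and the bar 1 SD over 3 libraries. Gfra1, Gfra2, Ngfr and Bdnf sit lower in every IL-4 library and Gdnf and Ntrk2 higher, and Ntf3 and Ntrk3 stay at or below 0.14 FPKM.

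Gfra1, a receptor for GDNF family ligands, showed the largest change of the 6 tested genes. Its expected counts were 941, 890 and 824 in control replicates 1 to 3 and 341, 374 and 334 in IL-4 replicates 4 to 6. The lowest control library held more than 2 times the reads of the highest IL-4 library. The log2 fold change was -1.19 (SE 0.089, 95% interval -1.39 to -0.98, adjusted p = 2.49e-05, edgeR), which leaves 44.0% of the control level. Of all tested genes, 4.18% had a lower log2 fold change. Gfra1 lies on the minus strand of chr19:58235581-58455946 (GRCm38, the assembly also called mm10). A long noncoding gene on the opposite strand, Gm16277, overlaps it and is not listed in the tables. The overlap is one of whole gene spans, and whether exons overlap was not checked. As the strand of the libraries is not given in the sources used here, reads from any shared exon could not be told apart.

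Gfra2 was lower as well, with more spread between the IL-4 libraries. It had 290, 304 and 333 expected counts in control cultures and 141, 180 and 108 in cultures with IL-4. IL-4 replicate 6 was the lowest, and the groups did not overlap. The log2 fold change was -0.95 (SE 0.177, adjusted p = 0.00358, edgeR), and it was -1.15 without IL-4 replicate 5 and -0.77 without IL-4 replicate 6. Hence the number of genes called lower beyond a log2 fold change of 1 was 2 without IL-4 replicate 5.

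The ligand Gdnf changed in the opposite direction. Its expected counts were 58, 61 and 77 in control cultures and 111, 118 and 104 in IL-4 cultures, so every IL-4 library was above every control library. Gdnf rose by 0.92 on the log2 scale (SE 0.148, adjusted p = 0.00171, edgeR), to 1.89 times the control level. Control replicate 3 was the highest of its group, and without it the log2 fold change was 1.04, past the 2-fold limit.

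Since Gdnf, GFRα1 and RET work as a complex, the FPKM of the genes were also set against each other within each library. The ratio of Gdnf to Gfra1 was 0.0700, 0.0781 and 0.109 in control libraries and 0.388, 0.377 and 0.369 in IL-4 libraries, a 4.50-fold difference. Ret over Gfra1 was 0.161 ± 0.0154 (SD, n = 3) in control and 0.835 ± 0.0654 in IL-4 libraries. Gfra1 over Gfra2 was 2.17 ± 0.268 in control and 1.96 ± 0.410 in IL-4 libraries, with overlapping groups, so a difference between the falls of the 2 receptors was not shown (exact permutation p = 0.40, two-sided). In all, 5 such ratios were compared. For the other 4, including the Gdnf and Ret ratios, the groups did not overlap and p was 0.10, the smallest that 3 against 3 libraries can give (0.125 after Benjamini-Hochberg adjustment over the 5). Each of these 4 sets a gene that rose in every IL-4 library against a gene that fell in every one. Their separation and p thus follow from the values of the single genes and are no further evidence.

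**Figure D2:**
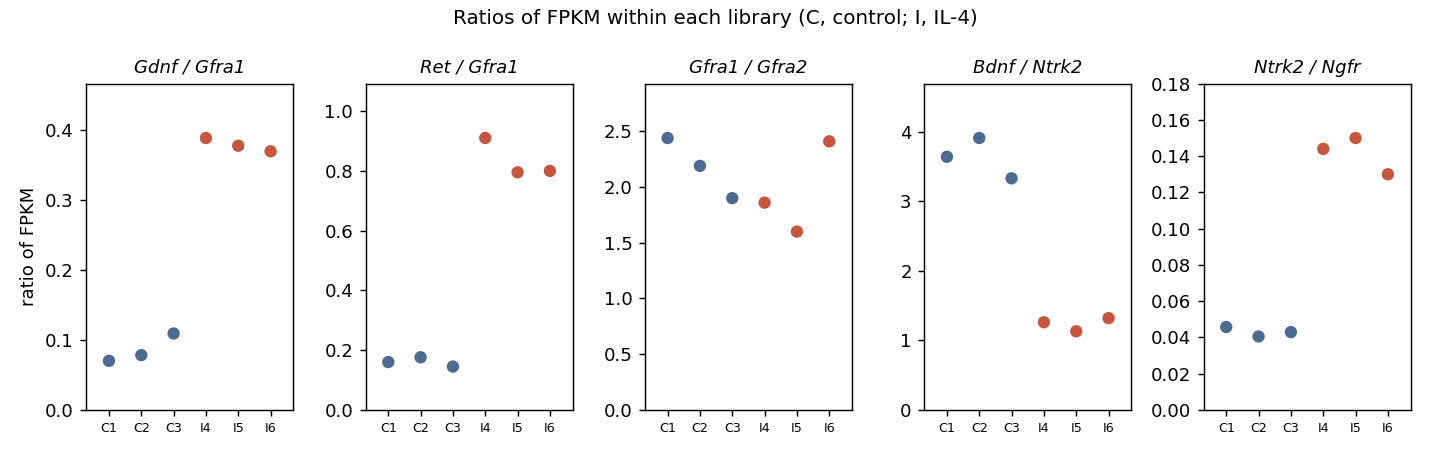
Ratio of the FPKM of 2 genes within the same library (vertical axis, linear, a separate scale for each panel) for 3 control libraries (C1 to C3, blue) and 3 IL-4 libraries (I4 to I6, red). Gdnf over Gfra1, Ret over Gfra1 and Ntrk2 over Ngfr are higher in all IL-4 libraries and Bdnf over Ntrk2 is lower in all, while Gfra1 over Gfra2 overlaps between the groups.

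The other genes of the GDNF family list also changed in both directions. Ret rose from 1.19, 1.24 and 0.95 FPKM in control libraries to 2.44, 2.32 and 2.08 in IL-4 libraries (log2 fold change 1.20, SE 0.124, adjusted p = 0.000154). Gfra4, the co-receptor for persephin, rose by 0.65 on the log2 scale (adjusted p = 0.00800), and was named after its values were seen. Ncam1, an adhesion molecule that can serve GDNF without RET, fell by 0.35 (adjusted p = 0.00487) from a level of about 46 FPKM. In total, 12 of the 13 genes of this family list were found in the libraries and 10 were tested. Of the 10, 3 were higher, 3 were lower and 4 were not called. Their median log2 fold change was -0.22, against 0.00 over all tested genes, of which 19.0% were called higher and 18.4% lower. Nrtn (neurturin), at 1.03, 0.62 and 0.69 FPKM in control and 0.25, 0.54 and 0.68 in IL-4 libraries, overlapped between groups and was not called (adjusted p = 0.347). Artn (artemin) was not called either (adjusted p = 0.300), nor were Sdc3, a syndecan that binds GDNF (-0.21, adjusted p = 0.111), and Gdf15, a ligand that signals through GFRAL and RET (0.34, adjusted p = 0.182).

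Of the neurotrophin receptors, Ngfr had the highest level and Ntrk2 was the one that rose. Ngfr had 1969, 1908 and 2036 expected counts in control libraries and 1064, 1037 and 1008 in IL-4 libraries. It held the most reads of the 8 genes, and its groups did not overlap. The log2 fold change was -0.77 (SE 0.061, adjusted p = 3.32e-05, edgeR), or 58.6% of the control level. Ngfr is also known as a marker of Schwann cells, and the glial markers are given below.

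Ntrk2 had 189, 162 and 184 expected counts in control libraries and 326, 324 and 275 in IL-4 libraries. IL-4 replicate 6 was the lowest of its group and still above every control library. The log2 fold change was 0.95 (SE 0.115, adjusted p = 0.000382, edgeR), or 1.93 times the control level, and it was 1.04 without IL-4 replicate 6. Within libraries, Ntrk2 over Ngfr moved from 0.0430 ± 0.00257 (SD, n = 3) to 0.141 ± 0.00996, a 3.29-fold difference. Noncoding genes overlap Ntrk2 on both strands, and none is listed in the tables. Bdnf is overlapped on the opposite strand and Ntrk3 on both strands, again by genes not listed in the tables. The counts are summed over the transcripts of a gene, so full-length TrkB and its form without the kinase, both encoded by Ntrk2, could not be told apart.

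Bdnf, the main ligand of TrkB, fell while that receptor's mRNA rose. It had 386, 357 and 343 expected counts in control cultures and 229, 207 and 206 in IL-4 cultures, with no overlap. The log2 fold change was -0.60 (SE 0.096, adjusted p = 0.00158, edgeR), or 65.8% of the control level. Bdnf over Ntrk2 was 3.64, 3.91 and 3.33 in control libraries and 1.26, 1.13 and 1.32 in IL-4 libraries.

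Ntf3 and Ntrk3, a ligand and its receptor TrkC, were close to the limit of detection. Ntf3 was read 1, 5 and 2 times in control libraries and 0, 1 and 0 times in IL-4 libraries, which gave a ratio of IL-4 to control of 0.139 with a 95% counting interval of 0.00313 to 1.04. Ntrk3 was read 13, 3 and 6 times in control and 2, 1 and 1 times in IL-4 libraries, a ratio of 0.202 (0.0507 to 0.596). These exact intervals cover counting error only, and control replicate 1 held 13 of the 22 Ntrk3 reads of its group. With no filter, neither was called by edgeR (adjusted p = 0.183 for Ntf3 and 0.0661 for Ntrk3), so a difference was not detectable at this depth.

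Ntf5, which encodes another ligand of TrkB, was also in the neurotrophin list. It was low, at 0.39, 0.34 and 0.39 FPKM in control and 0.19, 0.14 and 0.21 in IL-4 libraries, with no overlap. It fell by 0.86 on the log2 scale (adjusted p = 0.0291), and this call was lost with DESeq2 (-0.87), with no filter (-0.86) and without any 1 library except IL-4 replicate 6 (-0.71 to -0.92). Of the 6 genes counted in that list, 4 were tested, of which 3 were lower and 1 was higher, with a median log2 fold change of -0.69.

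Per transcript length, the control levels ran from Ngfr (19.99 to 21.23 FPKM) through Gfra1 (6.54 to 7.43), Gfra2 (3.05 to 3.44), Bdnf (3.03 to 3.42), Ntrk2 (0.81 to 0.94) and Gdnf (0.52 to 0.71) to Ntf3 and Ntrk3. Gfra2 and Bdnf overlapped, as did Ntf3 and Ntrk3, and the other neighbours did not. In IL-4 cultures, Ngfr (10.36 to 11.01) and Gfra1 (2.60 to 2.92) kept the first 2 places, followed by Bdnf (1.78 to 2.00), Ntrk2 (1.35 to 1.60), Gfra2 (1.08 to 1.82) and Gdnf (0.96 to 1.10). There the ranges of Ntrk2 and Gfra2 overlapped, as did those of Gfra2 with Gdnf and with Bdnf.

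**Figure D3:**
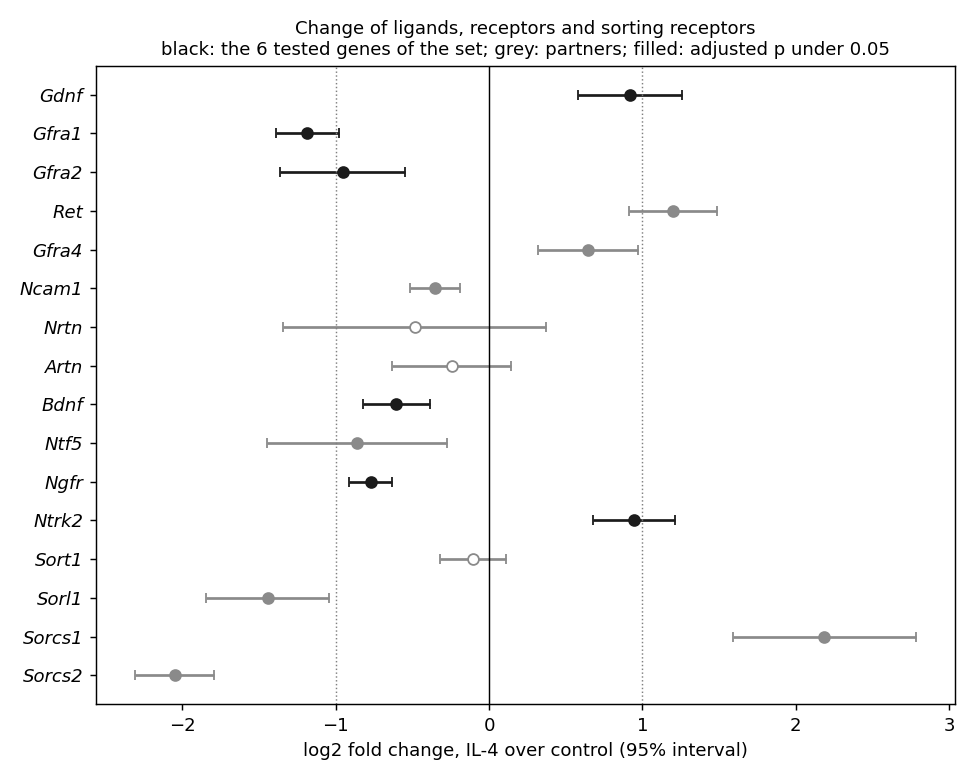
Log2 fold change of IL-4 over control (horizontal axis) with its 95% interval from edgeR, for the 6 tested genes (black) and other ligands, receptors and sorting receptors (grey). Filled circles have an adjusted p under 0.05 and dotted lines mark a log2 fold change of 1 in either direction. Gfra1 is at -1.19 and Ret at 1.20, and Sorcs2 and Sorcs1 lie at -2.05 and 2.19.

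Among genes that sort and cleave neurotrophins and their precursors, the largest changes were in opposite directions. Sorcs2, a receptor that binds proneurotrophins together with p75NTR, fell from 17.29, 18.23 and 16.89 FPKM to 4.19, 3.85 and 3.16 (log2 fold change -2.05, adjusted p = 4.76e-06). Its relatives Sorl1 and Sorcs1 changed by -1.45 (adjusted p = 0.000355) and 2.19 (adjusted p = 0.000326), both from levels under 1 FPKM. Sortilin itself (Sort1) was not called (-0.11, adjusted p = 0.420). Of the proteases, Pcsk5, a proprotein convertase, rose from 19.65, 22.07 and 21.91 FPKM to 109.26, 108.54 and 97.77 (2.48, adjusted p = 4.19e-07) and Plat, tissue plasminogen activator, rose by 0.51 (adjusted p = 0.000140). Pcsk6, named after its values were seen, fell by 0.50 (adjusted p = 0.0122), and Furin was not called (-0.05, adjusted p = 0.674). In total, 10 of the 12 genes were tested, 3 higher, 3 lower and 4 not called, with a median of 0.02. Of all tested genes, 19.0% were higher and 18.4% lower.

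In the list of other secreted neurotrophic factors, Ptn (pleiotrophin) fell from 79.92, 73.67 and 85.25 FPKM to 18.42, 19.27 and 21.45 (-1.84, adjusted p = 1.10e-06). Manf and Nenf rose by 0.35 (adjusted p = 0.0153) and 0.77 (adjusted p = 0.0117), as did Cdnf, named after its values were seen (0.48, adjusted p = 0.0356). The Cdnf call was lost with DESeq2 (0.48, adjusted p = 0.0904), with library totals (0.31, adjusted p = 0.121), with limma in each of its settings (0.15 to 0.29, adjusted p = 0.0928 to 0.114) and without control replicate 1 or 3 or IL-4 replicate 4 or 5 (0.41, 0.46, 0.41 and 0.54). The Manf call was lost with library totals (0.18), with limma (0.17) and without control replicate 1 or 2 (0.32 and 0.31). The Nenf call was lost without control replicate 1 (0.75) and with limma on log2(FPKM + 1) with no filter (0.55, adjusted p = 0.0794). Midkine (Mdk) was not called (-0.17, adjusted p = 0.282), but it was without IL-4 replicate 6 (-0.29, adjusted p = 0.00655). All 5 genes were tested, with 3 higher and 1 lower and a median of 0.35.

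Like most tested genes (19.0% were called higher and 18.4% lower), most adaptors of Trk, p75NTR and RET were not called. Of the 20 genes, 19 were tested, and 4 were higher, 1 was lower and 14 were not called, with a median of 0.02. The 4 were Shc2 (0.62), Gab1 (0.50), Sh2b2 (0.87) and Rtn4r (0.86), and the lower one was Shc4 (-0.72), all 5 named after their values were seen. Rtn4r was no longer called without control replicate 2 or 3 or IL-4 replicate 5 or 6 (0.80, 0.73, 0.87 and 0.62), with library totals (0.69, adjusted p = 0.0729) and with limma (0.33 to 0.60, adjusted p = 0.0845 to 0.121). The most abundant, Maged1, Shc1 and Bex3, had log2 fold changes of 0.09, -0.14 and -0.05 (adjusted p = 0.292, 0.116 and 0.783).

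The genes that ERK signalling induces, some of which feed back on it, are shared outputs of RET, Trk and many other receptors. Spry1 fell from 26.08, 25.16 and 25.32 FPKM to 8.08, 8.69 and 9.26 (-1.37, adjusted p = 2.15e-06). The phosphatases Dusp6 (-1.83, adjusted p = 4.76e-06) and Dusp5 (-1.85, adjusted p = 0.000398) and the transcription factor Etv4 (-1.21, adjusted p = 0.000878) fell too. Dusp4 rose by 1.58 (adjusted p = 6.79e-05). Spry2 fell by 0.23 (adjusted p = 0.0289), a call lost without control replicate 1 or 2 or IL-4 replicate 4 or 5 (-0.22, -0.22, -0.23 and -0.25), and Spred1 was not called (-0.22, adjusted p = 0.0645). All 10 genes were tested, with 5 lower, 1 higher and 4 not called and a median of -0.23. The shares over all tested genes were 18.4% lower and 19.0% higher. Over the 58 tested genes of the 6 lists, which include the 6 tested genes above, 15 were higher and 16 lower. Scaled to library totals alone, 12 were higher and 24 lower, and all tested genes went from 2663 higher and 2582 lower to 1704 and 4963.

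Markers of other cell types were present and moved with the groups. In bulk RNA, fewer cells of a type and less RNA per cell cannot be told apart. Over all tested genes, to be set beside the marker counts here and below, 18.4% were lower and 19.0% higher. Of 7 markers of Schwann cells and other glia, 6 were tested, of which 5 were lower and 1 was higher. Their summed level was 54.0 to 57.9 CPM (counts scaled to the library total) in control and 22.2 to 24.9 in IL-4 libraries. Sox10, the transcription factor of the glial lineage, went from 4.64, 5.04 and 5.64 FPKM to 1.69, 1.89 and 2.06 (-1.27, adjusted p = 6.05e-05), and Mbp, a myelin protein, fell by 1.33 (adjusted p = 4.75e-06). Foxd3, Erbb3 and Cdh19 fell by 1.15, 1.18 and 0.94, while S100b rose by 0.99. Gfap was at or under 0.13 FPKM. Gfra1, Gfra2 and Ngfr fell by 1.19, 0.95 and 0.77 beside these, and the part of glial cells in their values was not tested. Falls of this size were not particular to glial markers. The median log2 fold change was -1.16 for the tested glial markers, -1.05 for mural cell markers and -1.02 for macrophage markers, of which 8 were lower and 1 higher.

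**Figure D4:**
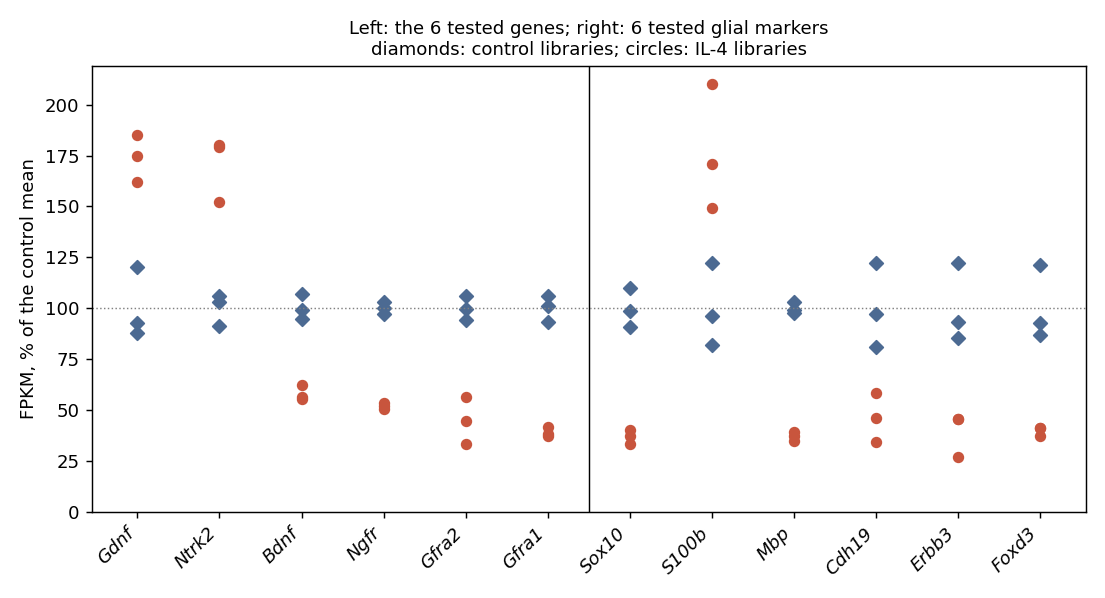
FPKM in each library as a percentage of the control mean of the same gene (vertical axis, linear) for the 6 tested genes (left) and 6 tested glial markers (right); diamonds are the 3 control libraries and circles the 3 IL-4 libraries. Gfra1 lies at 37.1% to 41.7% in IL-4 libraries and Sox10 at 33.1% to 40.3%, while Gdnf, Ntrk2 and S100b lie above 100% in all of them. FPKM are not scaled by TMM, and the edgeR fit with TMM gave 44.0% for Gfra1.

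Macrophage markers were read strongly in cells from which CD45-positive cells had been removed. Ptprc, which encodes CD45, was at 16.95, 19.00 and 18.93 FPKM in control and 8.18, 8.48 and 8.0 in IL-4 libraries. Of 10 macrophage markers, 8 were lower and 1 was higher, and Mrc1, the mannose receptor, was the one that rose (0.82, adjusted p = 0.000466). Their sum was 4085 to 5139 CPM in control and 2250 to 2523 in IL-4 libraries, of which Lyz2 alone made up 2442 to 3188 and 665 to 929. The other 9 summed to 1600.0 to 1951 and 1585 to 1623, with overlap. All 6 mural cell markers were lower (sums of 74.4 to 84.5 and 26.7 to 39.4). Of 7 endothelial markers, 3 were lower and 2 higher. Their sum was 55.1 to 58.5 and 82.0 to 100.5 CPM, and without Vwf, which rose by 3.08, it was 49.2 to 51.1 and 37.9 to 43.8. Pecam1, which encodes CD31, was not called (-0.20, adjusted p = 0.235), though it was with library totals (-0.37, adjusted p = 0.0394). The neuronal markers Snap25 and Th were not listed, and Elavl3, Elavl4, Syt1, Rbfox3 and Prph were at or under 0.18 FPKM, whereas Tubb3, a tubulin not limited to neurons, fell by 0.60. Of 6 markers of mature adipocytes, 3 were not listed and Fabp4 was the 1 tested and was higher. Of 5 mesothelial markers, 2 were tested and both were higher, with Msln, Upk3b and Lrrn4 at or under 0.22 FPKM. How far these cells carry the 8 genes was not tested.

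The AP markers Pdgfra, Pdgfrb and Ly6a (SCA-1) were read at 53.39 to 57.15, 172.87 to 199.95 and 108.06 to 131.28 FPKM in control libraries. Of 10 AP markers, all tested, 5 were higher with IL-4 and 3 were lower, with a median log2 fold change of 0.53. Pi16, Cd34, Cd55 and Ly6a rose by 4.02, 3.35, 3.14 and 1.20, while Pdgfrb fell by 0.66. The summed level was 1463 to 1621 CPM in control and 1336 to 1464 in IL-4 libraries, and without Pdgfrb it was 538 to 552 and 820 to 865. These sums are scaled to library totals, on which IL-4 values are lower than with the TMM scaling of the fold changes.

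The study also asked which mRNAs might be targets of 6 microRNAs of the H19X locus, and the 3′ UTRs of the 8 genes were therefore searched for their seed matches. A microRNA recognises an mRNA mainly through bases 2 to 8, its seed. The 2 below are those with matches in Gfra1 (mature mouse sequences from RefSeq, 5′ to 3′, seed in capitals), and they are shown because Gfra1 fell most among the 6 tested genes.

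miR-542-3p: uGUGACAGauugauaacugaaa
miR-450b-5p: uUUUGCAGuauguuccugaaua

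The longest annotated 3′ UTR of Gfra1 has 2787 bases. It holds 2 matches to the miR-542-3p seed (CTGTCAC), at chr19:58237083-58237109 and chr19:58236212-58236238, and 1 to the miR-450b-5p seed (CTGCAAA), at chr19:58236845-58236871, all read on the minus strand of GRCm38. Each is shown with 10 bases on either side and the match in capitals.

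Gfra1 miR-542-3p, first: tcatgacagaCTGTCACacacaaaagg
Gfra1 miR-542-3p, second: ttgaagagcaCTGTCACcagtaaaaat
Gfra1 miR-450b-5p: accatgtttcCTGCAAAgtgaataagg

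Among the 2096 tested genes whose 3′ UTR is within 20% of that length, 26.5% hold a miR-542-3p match and 21.7% a miR-450b-5p match, so such matches are common. Gdnf, which rose, also holds 3 matches in its 2743 bases. They are to miR-503-5p (seed match CGCTGCT), miR-351-5p (CTCAGGG) and miR-542-3p, at chr15:7837154-7837180, chr15:7835077-7835103 and chr15:7835296-7835322 on the plus strand, and are shown as the counterpart to those of Gfra1.

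Gdnf miR-503-5p: gctacgtatgCGCTGCTctctccgctc
Gdnf miR-351-5p: tcaccagaagCTCAGGGctggtgtcct
Gdnf miR-542-3p: atgtattttcCTGTCACtcaatggatt

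Of 3′ UTRs of similar length, 8.84%, 26.7% and 25.8% hold these 3. Ngfr and Bdnf, both lower, hold 3 and 2 matches to the seeds searched, and Ntrk2, which was higher, holds 2. Gfra2, which was lower, holds none in 1342 bases. Of the untested genes, Ntrk3 holds matches in its 16600 bases, and none was found in the 314 of Ntf3. At lengths like those of Ntrk2, Bdnf, Ngfr and Gfra2, 61.2%, 41.7%, 31.7% and 24.3% of 3′ UTRs hold a miR-322-5p match. For the other seeds matched in Ngfr, Bdnf or Ntrk2, the shares ran from 17.3% (Ngfr, miR-450b-5p) to 50.6% (Ntrk2, miR-542-3p). Matches were thus present in genes of both directions, and they were more common in longer 3′ UTRs. Whether they differ between the directions beyond length was not tested. A match is a stretch of letters and not a measured site.

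By the correlation of log2 CPM, here scaled by TMM, over the 6 libraries, the genes most like Gfra1 were Wnt16 (Pearson's r = 0.9997), Hspa4 (0.9994) and Shc4 (0.9992). Their own log2 fold changes were -1.25, -0.39 and -0.72. The libraries form 2 groups, which all such correlations share, and 163 genes had an r above 0.99, so the order is only a description.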

How the data were processed

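mRNA-seq libraries of poly(A) RNA from APs were prepared and sequenced by the authors on the BGISEQ-500 platform, and the reads were filtered with SOAPnuke. The submitters' processing notes name HISAT, StringTie, Bowtie2, RSEM and mm10. The deposited tables hold for each gene an unnormalized expected count, a transcript length and an FPKM, for which the authors divided by length and sequencing depth. Of expected counts above 0, 87.1% were whole numbers. A gene not listed for a library was taken as 0, 26 genes with a date as symbol were identified by their Entrez number, and 1 row naming no gene was dropped (at most 0.000225% of counts). Small RNA tables were not used here.

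After rounding of the expected counts, low genes were removed by filterByExpr (at least 10 counts, and 15 in total), and the libraries were scaled with TMM and compared with edgeR 4.0.16 (R 4.3.3) by its quasi-likelihood test over the 6 libraries, with Benjamini-Hochberg adjustment over 14009 genes. Unless another tool is named, adjusted p-values are from this fit. For normalized counts, each count was divided by its library's TMM-scaled size. FPKM and the CPM of the marker sums are scaled to sequencing depth and not by TMM. The log2 CPM of the correlations with Gfra1 are scaled by TMM. With library totals the median log2 fold change of all genes was -0.17, against 0.00 with TMM. Falls therefore look larger and rises smaller in FPKM and in the CPM of the marker sums than in the fit. The series describes the libraries as biological replicates, and p-values set the difference between the groups against the spread within them. Whether the cultures came from different animals is not given, so that spread may be one between cultures only. The alternatives were DESeq2 1.42.0, upper-quartile scaling, library totals, no filter, limma 3.58.1 on log2(FPKM + 1) with and without a filter (mean FPKM of at least 0.1) and on log2(FPKM + 0.1), and each library left out. The fit was also run on simulated counts in which few genes were changed, up and down in equal number. That run could not test the choice of scaling.

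The 8 genes and all gene and marker lists were chosen with earlier results of these data known. Genes named are the 8, Ntf5, Ret, Nrtn, Artn, Ncam1 and Sort1, in each pathway list those called beyond a log2 fold change of 1 and the 3 with the highest mean FPKM, and the 3 most correlated with Gfra1. Some genes of the lists are not reported here and are left out of the counts. Bex3 was matched by its Entrez number. Gfral was not among the genes listed. Coordinates are from GRCm38 with RefSeq, and 3′ UTRs from GENCODE M21 (longest per gene, 13302 tested genes). Other work used Python 3.11.15, pandas 2.3.3, scipy 1.17.1 and matplotlib 3.10.9.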

Additional observations from a re-analysis of the deposited data

How the results depend on the processing

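The direction and the call of the 6 tested genes were kept under all 13 alternatives: 4 were lower and 2 higher in each. Under count-based settings with all libraries, the log2 fold change of Gfra1 ranged from -1.36 to -1.18 and that of Gdnf from 0.75 to 0.92. Scaling to library totals moved the median of all genes by -0.17, and with it Gfra2 joined Gfra1 below a log2 fold change of -1 (2 genes lower beyond 2-fold in place of 1), as it did with limma on log2(FPKM + 0.1) (2). Leaving out single libraries, 1 to 2 genes were lower beyond 2-fold (2 without IL-4 replicate 5) and 0 to 1 higher (1 without control replicate 3 or IL-4 replicate 6). With library totals, Sdc3, Shc1, Sort1, Furin, Spred1 and Mdk were also called lower (-0.38, -0.31, -0.28, -0.22, -0.40 and -0.34), and Manf, Cdnf and Rtn4r were no longer called (0.18, 0.31 and 0.69). Sdc3 and Spred1 were also called lower with upper-quartile scaling (-0.23 and -0.25). Some of the genes called lower with library totals were called lower with limma too. Examples were Sdc3, Shc1 and Furin, in each limma setting (-0.378, -0.305 and -0.215 on log2(FPKM + 1)). Among named genes not called with TMM, Maged1 turned from 0.091 to -0.083 with library totals and with limma on log2(FPKM + 1), with or without the filter, and to -0.084 on log2(FPKM + 0.1). Bex3 and Furin changed sign when single libraries were left out, with ranges of -0.174 to 0.035 and -0.089 to 0.035. On the scale of log2(FPKM + 1), changes of genes near 1 FPKM are understated, and Gdnf was lowest there at 0.35. No paired analysis was possible because the control mRNA cultures are numbered 1 to 3 and the IL-4 cultures 4 to 6. Depth limited Ntf3 and Ntrk3, which held 9 and 26 reads over all libraries.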
